A study of Mus musculus with 12 samples.

Results

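Glutathione synthesis and transferase genes were followed in control and cisplatin-treated ID8 cells, an established mouse line that arose from surface epithelium of the ovary and serves as a model of ovarian cancer. The 10 genes, taken by symbol from a table of 14852 genes, were the cystine importer gene Slc7a11, the synthesis genes Gclc, Gclm and Gss, the reductase gene Gsr, the peroxidase genes Gpx1 and Gpx4 and the transferase genes Gsta3, Gsta4 and Gstm1. All 10 were listed and all 10 passed the filter of at least 1 FPKM in 3 libraries, as did 11449 genes in all. Of the 19049 ac4C peaks in the authors' deposited peak table, 13 were assigned to 7 of the 10 genes. The study compared 2 conditions of the unmodified line, control and cisplatin-treated cells, and its stated interest was RNA regulation through ac4C, an acetylated cytidine laid down by the enzyme NAT10. Fragmented, rRNA-depleted RNA was divided into input and an anti-ac4C immunoprecipitate (IP), giving 12 libraries in 4 groups of 3. Only input had values per library, in FPKM (fragments scaled to gene length and to library size). The sources used here give neither the dose nor the length of exposure. Nor do they say whether replicates were separate cultures, so the spread behind each p-value is that among these libraries and could be a technical one. One unmodified line was used, and the results hold for that line.

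Glutathione is a tripeptide of glutamate, cysteine and glycine. The xCT transporter brings in cystine, glutamate-cysteine ligase joins glutamate and cysteine in the step that limits the rate, and glutathione synthetase adds glycine. Peroxidases use glutathione to reduce peroxides, glutathione reductase returns the oxidised form to the reduced one, and transferases couple glutathione to electrophiles. Platinum from cisplatin binds thiols, and glutathione is one of its known ligands in the cytosol of ovarian cancer cells.

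Control libraries held 19921365 to 21111362 fragments in listed genes and cisplatin libraries 21437552 to 29280272, as recovered from the steps of the FPKM values. The 10 genes were covered by 283 (Gsta3) to 11305 (Gsta4) fragments per library. The FPKM of all listed genes summed to 258546 to 259158 in control and to 275195 to 278678 in cisplatin libraries, so a change of about that size in a single gene depends on the scaling. Of the surface epithelium and mesothelial markers 11 of 13 were tested, and Krt7 and Lhx9 stayed under 1 FPKM. Krt7 had 84 fragments over the control libraries and 6 over the cisplatin libraries, and Lhx9 had 2 and 656. The summed levels were 2150 to 2184 FPKM (control) and 2987 to 3336 FPKM (cisplatin). Most of the sum was Krt8, Krt18 and Krt19, with control means of 587, 473 and 759 FPKM. Of the immune markers 2 of 9 were listed (summed level 2.25 to 2.60 and 8.14 to 9.97 FPKM), and of the endothelial markers 2 of 5 (0.723 to 0.931 and 2.76 to 2.96 FPKM). These sums were mostly Cd68 (means 2.41 and 8.89 FPKM) and Tek (0.846 and 2.64 FPKM). The pan-leukocyte gene Ptprc and the endothelial genes Pecam1, Cdh5 and Kdr were not among the listed genes. Within the epithelial list 5 genes were called higher and 5 lower, beside 40.1% and 41.1% of all tested genes. Higher were the keratin genes Krt8, Krt18 and Krt19, with Msln and Upk1b. The Msln rise was the smallest of these, 1.12-fold, and its dependence on the scaling was not tested. Lower were the transcription factor genes Wt1, Gata4 and Gata6, with Cdh2 and Upk3b. Fibroblast markers, 4 of 6 listed, summed to 23.8 to 24.6 FPKM (control) and 17.1 to 18.7 FPKM (cisplatin). The part of other cells in the results below was not tested.

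Cisplatin cells had more RNA of Gss, Gpx1, Gsta4 and Gclm, and less of Gsta3, Slc7a11 and Gstm1. The group means of Gclc, Gsr and Gpx4 were 1.06-fold, 1.08-fold and 1.07-fold apart. Of the 10 genes 5 passed an adjusted p of 0.05 as higher and 3 as lower, where among all tested genes 40.1% were higher, 41.1% lower and 81.3% called in either direction. Gsr, the smallest of the 5 rises, lost its call under most alternatives. The groups did not overlap for 9 of the 10 genes, nor for 84.2% of all tested genes. A call by itself is common in these libraries. The median log2 change of the 10 genes was 0.11, and that of all tested genes was -0.0028. By the authors' deposited table, 8 of the 10 genes had an adjusted p under 0.05, as did 77.8% of its genes. Log2 changes are on the log2(FPKM + 1) scale, cisplatin minus control, with the limma standard error (SE) and Benjamini-Hochberg adjusted p over all tested genes. An exact two-sided permutation test of 3 against 3 libraries cannot go below 0.1, and it gave p = 0.1 for each of the 10 genes except Gpx4, which had p = 0.2. In bulk RNA, fewer cells that express a gene and less of its RNA per cell cannot be told apart.

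**Figure D1:**
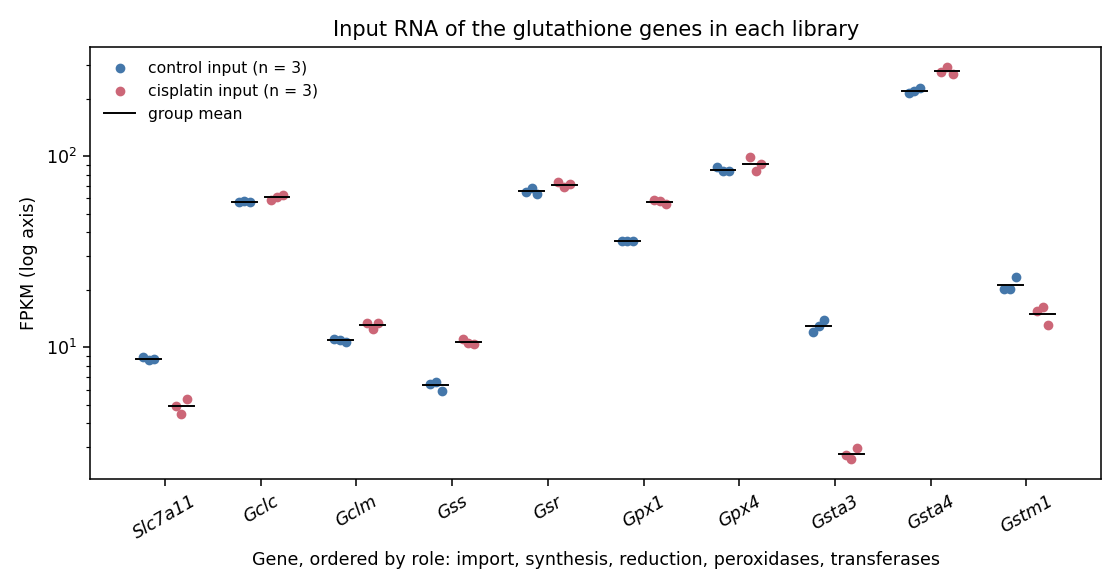
FPKM on a log axis of the 10 genes in each control and cisplatin input library, with black lines at the group means (n = 3 each). Gsta3 shows the widest gap between the groups, and the Gpx4 points of the 2 groups overlap.

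The gene of the cystine importer fell. Slc7a11 (ENSMUSG00000027737, chromosome 3, 50364936 to 50499087, mm10) encodes xCT, the exchanger of extracellular cystine for glutamate. It measured 8.87, 8.54 and 8.70 FPKM in control replicates 1, 2 and 3, and 4.93, 4.48 and 5.37 FPKM in cisplatin replicates 1, 2 and 3. Every cisplatin library was below every control library. The mean went from 8.70 ± 0.168 to 4.93 ± 0.443 FPKM (SD, n = 3), 1.77-fold lower, with a log2 change of -0.71 (SE 0.0643, limma adjusted p = 2.9e-05). Cisplatin libraries varied more than control libraries, with a coefficient of variation of 9.0% against 1.93%, where counting error alone gives 2.40% and 1.92%. Slc3a2, whose product is the heavy chain that carries xCT to the membrane, fell less, from 160 ± 17.7 to 125 ± 6.42 FPKM (log2 change -0.36, limma adjusted p = 0.00498). The FPKM ratio of Slc3a2 to Slc7a11 was 15.8, 20.1 and 19.5 in control libraries and 23.9, 28.0 and 24.3 in cisplatin libraries, with no overlap.

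The sequence before the Slc7a11 start is shown because it holds a pair of amino acid response element cores, the motif bound by ATF4 with its partners. It is the stretch of 250 bases before a listed start, chr3:50443614-50443863 of GRCm38.p6 (RefSeq), minus strand, which lies inside the gene span given above. It is written 5′ to 3′ on the strand of the gene, with matches to TGATGNAA on either strand in capitals.

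Slc7a11: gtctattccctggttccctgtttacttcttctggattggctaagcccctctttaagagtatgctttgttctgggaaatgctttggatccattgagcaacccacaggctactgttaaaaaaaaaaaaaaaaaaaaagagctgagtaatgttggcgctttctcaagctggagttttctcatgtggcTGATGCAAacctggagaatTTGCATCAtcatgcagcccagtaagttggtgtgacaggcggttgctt

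The 2 matches, 1 on each strand, begin 66 and 47 bases before the start. Among 32851 RefSeq promoter windows of the same length 3.45% held at least 1 match and 0.0396% (13 windows) held 2 or more. The other 6 genes with a window in the table had none. Atf4 RNA itself measured 562 ± 3.26 FPKM in control and 579 ± 14.4 FPKM in cisplatin cells (log2 change 0.04, limma adjusted p = 0.271), a difference that took the opposite sign once all libraries were rescaled to the same sum (-0.06), with quantile normalization (-0.16, adjusted p = 0.00334) and with voom (-0.03). A match is a description of letters and not a measured binding site.

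In the first step of synthesis the RNA differed little between groups. Gclc (ENSMUSG00000032350, chromosome 9, 77754535 to 77794489), the catalytic subunit gene of glutamate-cysteine ligase, had 57.5, 58.3 and 57.3 FPKM in control and 59.2, 61.3 and 62.5 FPKM in cisplatin replicates 1, 2 and 3. The cisplatin values were all above the control values, by little. The log2 change of 0.08 (95% interval 0.0041 to 0.15, limma adjusted p = 0.0507) did not pass the threshold. It became -0.02 once all libraries were rescaled to the same sum and -0.08 with quantile normalization, and it passed as a rise without cisplatin replicate 1 (0.10, adjusted p = 0.0292), with a pseudocount of 0.1 (0.0463) and with no filter on low values (0.0449). The adjusted p ranged from 0.0292 to 0.802 over 13 alternatives.

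Gclm (ENSMUSG00000028124, chromosome 3, 122245487 to 122267215), the modifier subunit gene that makes the ligase more efficient, rose slightly. Control replicates 1, 2 and 3 had 10.99, 10.87 and 10.68 FPKM, and cisplatin replicates 1, 2 and 3 had 13.40, 12.38 and 13.41 FPKM. All cisplatin libraries lay above all control libraries, and the rise was 1.21-fold (log2 change 0.25, SE 0.0451, limma adjusted p = 0.00146). It was 0.16 after rescaling to a common sum. The ratio of Gclc to Gclm FPKM was 5.23, 5.37 and 5.37 in control libraries and 4.42, 4.95 and 4.66 in cisplatin libraries. The catalytic subunit thus had several times the RNA level per length of the modifier in both groups, and the ratio was lower in each cisplatin library. The pseudogene Gm6061, which lies inside the Gclm span and is named because of that place, had a mean of 7.79 FPKM in the control group and 1.77 FPKM in the cisplatin group.

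The Gclm promoter is shown because it holds a core of the antioxidant response element, the motif bound by NRF2 with a small MAF protein. The stretch is chr3:122245307-122245556 of GRCm38.p6 (RefSeq), plus strand, the 250 bases before a listed start. Its last bases lie inside the gene span given above. The match to TGACNNNGC on the opposite strand is in capitals.

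Gclm: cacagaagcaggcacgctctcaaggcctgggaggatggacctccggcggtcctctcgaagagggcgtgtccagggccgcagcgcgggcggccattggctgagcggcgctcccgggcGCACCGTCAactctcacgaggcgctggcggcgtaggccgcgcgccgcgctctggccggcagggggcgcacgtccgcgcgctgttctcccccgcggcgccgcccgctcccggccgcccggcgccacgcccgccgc

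The match begins 134 bases before the start. Of all 32851 windows, 10.2% held this core on either strand, so 1 match in a window is not rare.

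Gss (ENSMUSG00000027610, chromosome 2, 155563181 to 155592810), which encodes glutathione synthetase, rose more than either ligase subunit gene. It had 6.44, 6.59 and 5.89 FPKM in control and 11.02, 10.49 and 10.39 FPKM in cisplatin replicates 1, 2 and 3. The groups were far apart, and the mean went from 6.31 ± 0.370 to 10.6 ± 0.339 FPKM (SD, n = 3), 1.69-fold higher with a log2 change of 0.67 (SE 0.0542, limma adjusted p = 1.6e-05). Relative to Gclc, Gss went from 0.112, 0.113 and 0.103 in control to 0.186, 0.171 and 0.166 in cisplatin libraries. The noncoding gene Gssos2 of the RefSeq table overlaps most of the Gss span. No source used here gives the strand setting of the authors' counting, and without strand the reads of overlapping genes cannot be told apart. A noncoding gene also spans Gsta3.

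Gsr (ENSMUSG00000031584, chromosome 8, 33653238 to 33698162), the gene of glutathione reductase, which uses NADPH, was near its control level. Control replicates 1, 2 and 3 had 64.6, 68.4 and 63.3 FPKM and cisplatin replicates 1, 2 and 3 had 72.9, 68.5 and 71.2 FPKM. The lowest cisplatin library lay just above the highest control library. The log2 change of 0.11 (SE 0.0407, 95% interval 0.018 to 0.21, limma adjusted p = 0.0334) passed the threshold, but it was 0.02 after rescaling to a common sum (adjusted p = 0.725), 0.05 with voom (0.327) and -0.05 with quantile normalization (0.286). The call went too without control replicate 1 or 3 (adjusted p = 0.101 and 0.119), without cisplatin replicate 1 or 3 (0.104 and 0.0602) and with the replicate number as a block (0.0633); the range over 13 alternatives was 0.0185 to 0.725.

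The pair of peroxidase genes differed from each other. Gpx1 (ENSMUSG00000063856, chromosome 9, 108339080 to 108340342) encodes the cytosolic and mitochondrial glutathione peroxidase and had 35.8, 35.9 and 35.7 FPKM in control and 59.2, 58.0 and 56.2 FPKM in cisplatin replicates 1, 2 and 3. The groups were widely separated. The mean rose 1.61-fold, from 35.8 ± 0.0958 to 57.8 ± 1.49 FPKM (SD, n = 3), with a log2 change of 0.67 (SE 0.0313, limma adjusted p = 1.1e-06). The spread of the control libraries, 0.268%, was below the 2.94% that counting error alone gives.

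Gpx4 (ENSMUSG00000075706, chromosome 10, 80047166 to 80056439) encodes the peroxidase of lipid hydroperoxides that restrains ferroptosis. It had 87.6, 83.6 and 83.7 FPKM in control and 98.7, 83.7 and 91.2 FPKM in cisplatin replicates 1, 2 and 3. Cisplatin replicate 2 lay among the control libraries while the other two were above them. The log2 change of 0.10 (95% interval -0.042 to 0.24) did not pass (limma adjusted p = 0.162). It passed without cisplatin replicate 2 (0.16, adjusted p = 0.0149; range over 13 alternatives 0.0149 to 0.991), and turned to -0.0008 after rescaling and -0.12 with quantile normalization. The ratio of Gpx4 to Gpx1 was 2.45, 2.33 and 2.34 in control libraries and 1.67, 1.44 and 1.62 in cisplatin libraries, so the lead of Gpx4 was smaller in each of the latter. The pseudogene Gpx4-ps2, named after its values were seen, was at 2.23 ± 0.554 and 1.58 ± 0.185 FPKM.

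The transferase genes went in both directions. Gsta3 (ENSMUSG00000025934, chromosome 1, 21240565 to 21265575), an alpha class enzyme gene, had the largest change of the 10. It measured 11.995, 12.92 and 13.89 FPKM in control and 2.72, 2.59 and 2.95 FPKM in cisplatin replicates 1, 2 and 3. The 2 groups lay far apart and each was tight. The mean was 4.69-fold lower, 12.9 ± 0.947 against 2.76 ± 0.183 FPKM (SD, n = 3), and the log2 change was -1.89 (SE 0.0678, limma adjusted p = 4.2e-07). The decline rested on 3768 fragments over the control libraries and 914 over the cisplatin libraries.

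The Gsta3 promoter is shown beside that of Gclm because it also holds the antioxidant response element core while its RNA went the other way. The stretch is chr1:21240335-21240584 of GRCm38.p6 (RefSeq), plus strand, before a listed start, with TGACNNNGC in capitals. Its last bases also lie inside the gene span given above.

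Gsta3: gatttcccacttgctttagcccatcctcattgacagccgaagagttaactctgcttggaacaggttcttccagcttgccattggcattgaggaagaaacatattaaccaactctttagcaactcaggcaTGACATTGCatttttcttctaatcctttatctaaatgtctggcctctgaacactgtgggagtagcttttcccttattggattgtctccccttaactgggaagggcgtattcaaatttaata

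The match begins 121 bases before the start. Windows were at hand for 7 of the 10 genes, and among these Gclm and Gsta3 held the core. Of these 2, Gclm was higher and Gsta3 lower in cisplatin cells.

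Gsta4 (ENSMUSG00000032348, chromosome 9, 78191966 to 78209349), whose enzyme acts on 4-hydroxynonenal and other products of lipid peroxidation, was the most abundant of the 10 and rose. It had 213, 220 and 227 FPKM in control and 275, 292 and 269 FPKM in cisplatin replicates 1, 2 and 3. All cisplatin libraries were higher, by 1.27-fold on average (log2 change 0.34, SE 0.0419, limma adjusted p = 0.000168). The size depended on the scaling, with a log2 change of 0.24 after rescaling and 0.15 with quantile normalization, both past the threshold. The ratio of Gsta4 to Gsta3 went from 17.79, 17.02 and 16.33 to 101, 113 and 91.2. The ratio of this pair did not overlap between groups. Of the other alpha class genes, Gsta1 rose from 0.811 ± 0.121 to 1.35 ± 0.097 FPKM and Gsta2 was at 3.37 ± 0.213 and 3.38 ± 0.495 FPKM. Gm3776, a protein-coding alpha class relative near Gsta4 that was named after its values were seen, was at 0.494 ± 0.275 and 3.82 ± 1.22 FPKM.

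Gstm1 (ENSMUSG00000058135, chromosome 3, 108012250 to 108017973), a mu class gene, fell. It had 20.1, 20.2 and 23.4 FPKM in control and 15.5, 16.3 and 13.1 FPKM in cisplatin replicates 1, 2 and 3. The groups did not overlap, though replicate 3 stood off in each. The mean was 1.42-fold lower (log2 change -0.48, SE 0.0909, limma adjusted p = 0.00171), with coefficients of variation of 8.78% and 11.2% against 3.78% and 4.19% from counting alone. Mu class genes are close copies, and the split of reads between them is uncertain. Gstm2 fell as well, from 8.51 ± 0.236 to 3.15 ± 0.885 FPKM. The pseudogene Gstm2-ps1, named after its values were seen, had 275 fragments over the control libraries and 2 over the cisplatin libraries.

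The order of the 10 levels per length was nearly the same in both groups. In control it ran Gsta4, Gpx4, Gsr, Gclc, Gpx1, Gstm1, Gsta3, Gclm, Slc7a11 and Gss, with no overlap between neighbours over the 3 libraries. The closest neighbours were Gsr and Gclc, 1.13-fold apart. In cisplatin cells the first 6 kept their places and were followed by Gclm, Gss, Slc7a11 and Gsta3. There Gclc and Gpx1 came within 1.06-fold of each other without overlap, and Gstm1 and Gclm did overlap. Gsta3 thus went from the place 7 to the last. The levels of the 10 genes summed to 517, 525 and 529 FPKM in control and 612, 610 and 596 FPKM in cisplatin libraries, and to 0.200%, 0.203% and 0.205% against 0.220%, 0.222% and 0.214% of all listed FPKM. Most of that gain was in Gsta4, which was higher by 58.8 FPKM.

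**Figure D2:**
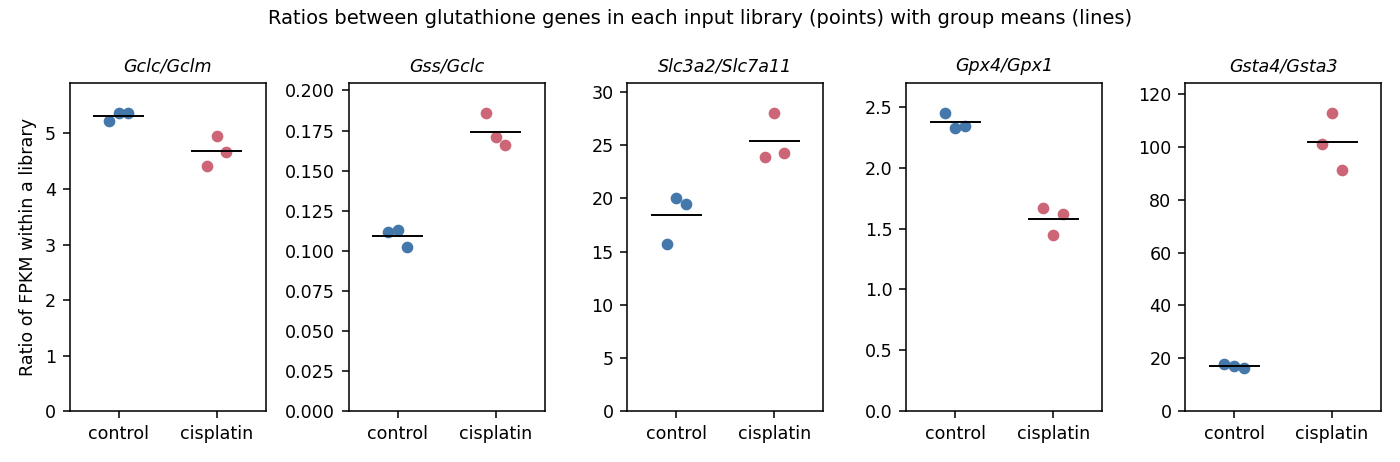
FPKM ratios between glutathione genes in each input library (points, n = 3 a group) with group means (lines), each axis starting at 0. The ratio of Gsta4 to Gsta3 goes from a mean of 17.1 to 102, and in all 5 panels the groups do not overlap.

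Of the 9 ratios, shares and sums compared in this way, 7 had groups that did not overlap. Single genes did not overlap in 84.2% of all tested cases. Each of the 7 had exact two-sided permutation p = 0.1, the smallest possible with 3 against 3, and 0.129 after Benjamini-Hochberg adjustment over the 9. The ratios are made of genes compared above, so their separation is no further evidence. The ratio of Gsr to Gclc, 1.123, 1.172 and 1.104 in control and 1.23, 1.12 and 1.14 in cisplatin libraries, overlapped. The share of Gsta4 in the summed FPKM of 15 listed transferase genes also overlapped, with 50.8%, 51.6% and 52.0% in control and 51.3%, 53.1% and 51.5% in cisplatin libraries. That sum left out Gstcd and Ptges, and Gstcd is counted among the further transferase genes below.

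Among the regulators of these genes, the NRF2 gene Nfe2l2 rose 1.95-fold, from 36.2 ± 0.728 to 70.7 ± 3.63 FPKM (log2 change 0.94, limma adjusted p = 1.01e-06). The small MAF genes Maff and Mafk, whose products pair with NRF2, rose 2.83-fold and 2.46-fold, to 50.9 ± 0.896 and 39.4 ± 2.65 FPKM. Their relative Mafg fell by 0.15 on the log2 scale (limma adjusted p = 0.0153). Keap1, which encodes the adaptor that marks NRF2 for degradation, was at 19.6 ± 1.27 and 17.7 ± 1.60 FPKM and did not pass (log2 change -0.14, limma adjusted p = 0.108), but did so as lower after rescaling (-0.25), with quantile normalization (-0.21) and with voom (-0.21), with adjusted p of 0.022, 0.0332 and 0.0196. Bach1, a repressor at the same motif, was higher by 0.14 (limma adjusted p = 0.00486), a call lost after rescaling (0.05), quantile normalization (0.08) and voom (0.08). Trp53, the p53 gene, whose product is known to repress Slc7a11, rose from 16.8 ± 0.117 to 25.6 ± 1.22 FPKM. Of the 8 regulators 5 were called higher and 1 lower, where 81.3% of all tested genes were called in either direction.

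Outside the 10 genes and the regulators, 69 other genes of the pathway were looked up by role, 48 were listed and 39 tested. Of these, 12 (30.8%) were higher and 22 (56.4%) lower, beside 40.1% and 41.1% of all tested genes, with a median log2 change of -0.30 beside -0.0028 for all tested genes. In the cysteine supply only Slc3a2 was tested, since Cth and Cbs of transsulfuration stayed under 1 FPKM, with 153 and 182 fragments over the control libraries and 0 and 1 over the cisplatin libraries. Among breakdown genes 3 of 7 were higher and 3 lower, and 1 of the higher calls, Cndp2, was lost with quantile normalization (log2 change 0.09, limma adjusted p = 0.101). Oplah, the 5-oxoprolinase gene, fell from 4.58 ± 0.167 to 2.24 ± 0.168 FPKM. Ggct and Chac2, whose enzymes release cyclic glutamyl residues, fell from 2.16 ± 0.125 to 0.852 ± 0.152 and from 8.10 ± 0.226 to 4.45 ± 0.544 FPKM, and Chac1, an inducible relative, rose from 11.9 ± 0.551 to 14.6 ± 0.905 FPKM. Gpx8, a peroxidase of the endoplasmic reticulum and the only tested one of 6 further peroxidase genes, rose from 16.0 ± 2.06 to 29.5 ± 1.39 FPKM.

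Of 11 further transferase genes tested, 3 rose, 6 fell and 2 did not pass, where 40.1% of all tested genes were higher and 41.1% lower. The omega class gene Gsto1 rose 2.45-fold, from 70.1 ± 0.831 to 172 ± 2.75 FPKM (log2 change 1.28, limma adjusted p = 8.14e-08), and so gained more FPKM than Gsta4. The pi class gene Gstp1, which is much studied in platinum resistance, fell from 33.5 ± 1.19 to 20.3 ± 0.318 FPKM. The microsomal gene Mgst3 fell from 9.26 ± 0.826 to 3.56 ± 0.293 FPKM. Mgst2 had 2 fragments over the control libraries and 374 over the cisplatin libraries.

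Of 7 glutaredoxin and glyoxalase genes 4 fell and 2 were called higher, beside 41.1% lower and 40.1% higher of all tested genes. Of the higher calls, Glrx3 was lost under each scaling alternative. Of the lower calls, Glrx2 was lost with quantile normalization (log2 change -0.21, limma adjusted p = 0.0502). Glo1 and Hagh, the pair of glyoxalase genes that clear methylglyoxal with glutathione, fell from 54.0 ± 0.860 to 31.8 ± 1.28 and from 19.20 ± 0.544 to 11.03 ± 0.445 FPKM. Glrx fell from 2.08 ± 0.140 to 0.392 ± 0.0399 FPKM, and the formylglutathione hydrolase gene Esd rose from 48.3 ± 1.28 to 60.4 ± 1.77 FPKM. Of 6 transport genes 2 rose and 3 fell, where 81.3% of all tested genes were called in either direction. The conjugate exporter gene Abcc4 fell from 21.6 ± 0.757 to 8.18 ± 0.271 FPKM and Abcc1 from 29.3 ± 0.144 to 26.1 ± 0.662 FPKM. Slc25a39, the mitochondrial glutathione importer gene, rose from 27.3 ± 1.097 to 42.9 ± 0.469 FPKM.

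Gpx1 and Gpx4 are selenoproteins, and genes for selenocysteine insertion were lower in 5 of 6 tested cases and higher in 1, beside 41.1% lower and 40.1% higher of all tested genes. Secisbp2, which binds the selenocysteine insertion element, fell from 6.39 ± 0.401 to 2.45 ± 0.428 FPKM, the kinase gene Pstk from 1.26 ± 0.0873 to 0.0674 ± 0.0330 FPKM and Sephs1 from 13.6 ± 0.533 to 9.63 ± 0.699 FPKM. Sephs2, which makes the selenium donor and is itself a selenoprotein, rose from 19.2 ± 0.387 to 38.5 ± 1.26 FPKM (log2 change 0.97, limma adjusted p = 5.24e-07).

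**Figure D3:**
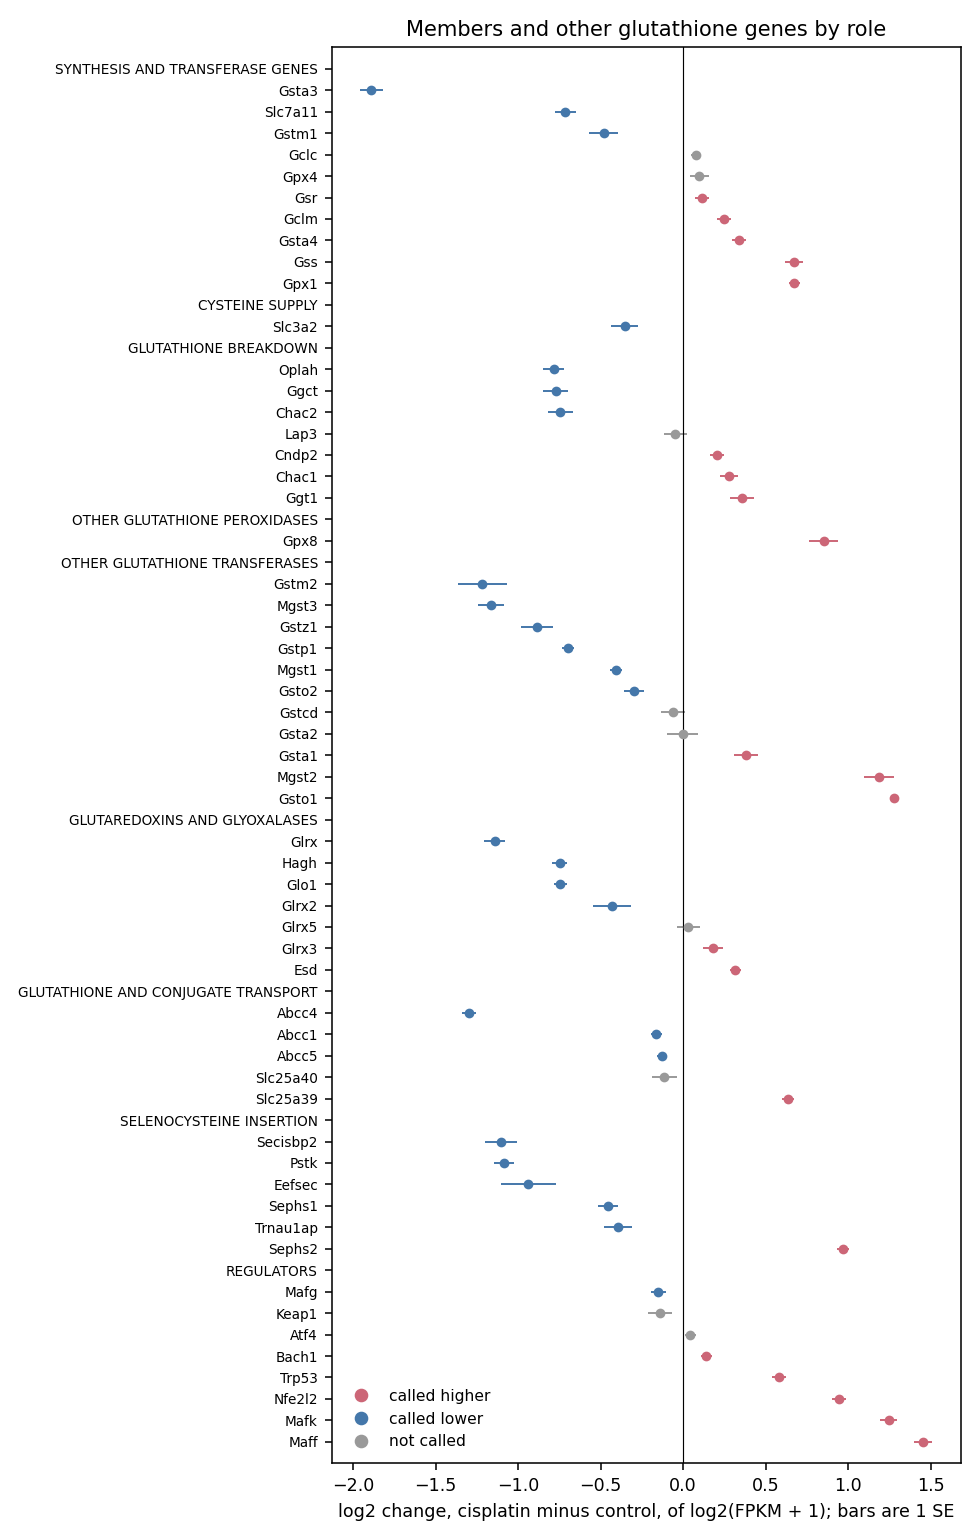
Log2 change (cisplatin minus control, log2(FPKM + 1) scale) with 1 SE for the 10 genes and other tested genes by role, n = 3 libraries a group; red points were called higher, blue lower and grey not. Gsta3 at -1.89 lies farthest to the left, and the selenocysteine genes lie on the left except Sephs2.

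The last comparison was the authors' deposited table of ac4C peaks. It gives each peak a fold enrichment of IP over input and a log2 difference between treatments, from all libraries in 1 comparison, so no spread between replicates can be given. No file header says which treatment a positive difference favours, and signs are given as deposited. Peaks were assigned to Gclc (2), Gss (1), Gsr (2), Gpx1 (1), Gpx4 (2), Gsta4 (2) and Slc7a11 (3), and none to Gclm, Gsta3 or Gstm1. Of the tested genes 65.6% had a peak, beside 7 of these 10. Of the 13 peaks 10 passed the authors' adjusted p of 0.05 for the difference, where 46.2% of all peaks did. Of the 13 peaks 9 passed with a positive sign, where 36.5% of all peaks did. Over all peaks 75.8% of differences were positive with a median of 1.58, and over the 13 peaks the median was 2.64.

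Peaks that the authors class as coding sequence passed in 5 of 5 cases, beside 56.0% of all peaks of that class. The class is 1 label per peak, and a peak can reach past the region it names. The widest was that of Gpx1, 560 bases at chromosome 9, 108339755 to 108340314, ending 28 bases before the end of the gene span. It had an enrichment of 25.9-fold, a log2 difference of 3.64 and a log10 adjusted p of -19.9. Gpx4 had a peak of 209 exonic bases at chromosome 10, 80054480 to 80054779, with 10.2-fold enrichment and a difference of 3.76 (log10 adjusted p -104), and one of 179 exonic bases at 80055051 to 80056053 with 5.41-fold and 1.37 (-29.0). The first of these had the largest difference of the 13 and stood at percentile 81 of all peaks.

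Gsta4 had a coding peak of 412 exonic bases over 5 exon blocks, chromosome 9, 78191982 to 78205948, with 14.2-fold enrichment and a small difference of 0.54 (log10 adjusted p -32.1). Gsr had one of 240 exonic bases over 3 blocks, chromosome 8, 33674146 to 33681560, with 1.64-fold enrichment and a difference of 3.14 (-17.4). Enrichment and difference did not go together in this pair: Gsta4 was at the percentile 82.2 of enrichment and 29.4 of difference, and Gsr at 2.7 and 72.5.

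Of the peaks classed as 3′ untranslated region 4 of 6 passed, beside 36.2% of all peaks of that class. Gsr had 1 at chromosome 8, 33697834 to 33698043, which at 59.9-fold had the highest enrichment of the 13 (difference 3.74, log10 adjusted p -1.58). Gclc had 2, at chromosome 9, 77793200 to 77793409 (9.12-fold, difference 1.53, log10 adjusted p -4.21) and 77793589 to 77793738 (5.76-fold, 3.51, -1.40). The Gsta4 peak at 78209084 to 78209320 was the negative one that passed (1.80-fold, difference -0.32, log10 adjusted p -1.80). Those of Slc7a11 at chromosome 3, 50367340 to 50367549 and 50371321 to 50371501 did not pass (differences 3.32 and 1.00).

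Slc7a11 also held the only peak of the 13 that the authors class as 5′ untranslated region. It covered 180 bases at chromosome 3, 50443195 to 50443374, and began 239 bases after the start whose promoter is printed above. Its enrichment was 10.8-fold and its difference 2.64 (log10 adjusted p -2.70). The Gss peak, of class exon, covered 120 exonic bases between 155567885 and 155572973 of chromosome 2, inside the overlap with Gssos2, and did not pass (3.16-fold, difference -0.74, log10 adjusted p -0.444).

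Whether peak differences follow the input changes gene by gene was not tested. Slc7a11, lower in input, and Gpx1, higher in input, both had positive called peaks, and so did Gclc, which was not called in input. Over all peaks 75.8% of differences were positive, so a positive sign by itself is common. The 3 genes with no peak included Gsta3 and Gstm1, which fell, and Gclm, which rose. For the wider list of pathway genes and regulators, 37 of 65 peaks (56.9%) passed, beside 46.2% of all peaks.

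**Figure D4:**
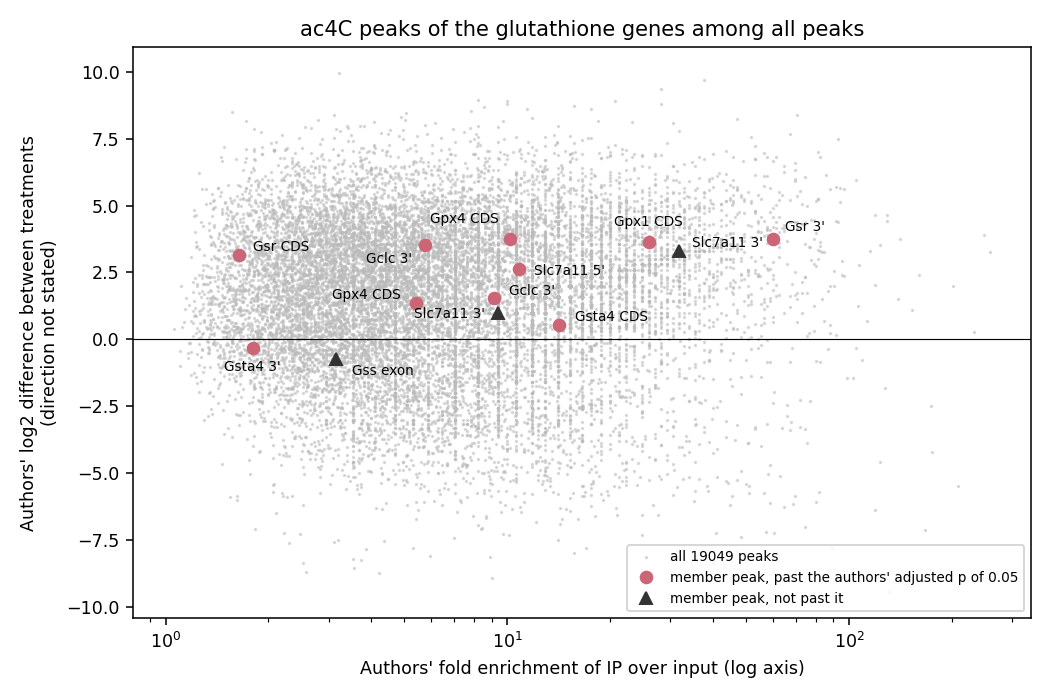
The authors' log2 difference between treatments (direction not stated) against their fold enrichment of IP over input (log axis), for all 19049 peaks in grey and the 13 peaks of the glutathione genes, marked by region; red circles passed the authors' adjusted p of 0.05 and black triangles did not. The Gsr peak in the 3′ untranslated region has the highest enrichment, 59.9-fold, and the Gss and Gsta4 3′ peaks lie below 0.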

How the data were processed

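Libraries were strand-specific and paired-end, per the labels' protocols. The build mm10 and the tools HISAT2, HOMER, FastQC and fastp come from the submitters' processing notes, without roles; counter, strand setting and peak caller: not given in the sources used here. Per gene, the authors deposited FPKM for 6 input libraries, with their log2 fold change and p-value. Their deposited peak table holds a fold ratio of IP over input, a log2 difference, a p-value, and scores that are the log10 of a p. Peak starts were converted to counting from 1. Genes were placed with a RefSeq table of GRCm38.p6.

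Genes with at least 1 FPKM in 3 libraries were tested with limma 3.58.1 (R 4.3.3; lmFit, eBayes with trend) on log2(FPKM + 1) with a pseudocount of 1, 3 cisplatin against 3 control inputs, threshold 0.05. The code was tested on simulated data. Fragments were recovered as the smallest whole numbers (tolerance 0.0001) for 14850 of 14852 genes; they serve voom, counting error and depth, and cover counting error only. Replicates of a group were no repeats (chi-square per gene 2.40 to 15.3). Alternatives changed the pseudocount, filter, scaling, block, reads and replicates. Same-numbered libraries did not deviate together (r = 0.0975, -0.116 and 0.0428). A shared effect could be small beside the other spread, so whether numbers pair samples is not settled. The main fit used no pairing. Members, lists and tests were chosen with earlier results of these data known. The rule named all 10 genes, 8 regulators, Slc3a2 and every peak of the 10 genes. It also named up to 4 genes per role list by adjusted p, with a mean of at least 1 FPKM in a group. Gstm2, Gsta1, Gsta2, Cndp2, Glrx2, Glrx3, Cth, Cbs, the epithelial markers, Cd68, Tek and the pseudogenes were added after their values were seen. 1 transport gene is counted with its list but is not reported here. Tables, permutation tests (scipy 1.17.1) and plots (matplotlib 3.10.9) were made in Python 3.11.15 with pandas 2.3.3 and numpy 2.4.6.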

Additional observations from a re-analysis of the deposited data

How the results depend on the processing

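Over 13 alternatives the calls of Gclm, Gss, Gpx1, Gsta3, Gsta4, Gstm1 and Slc7a11 kept their direction and their side of the threshold. The number of the 10 genes called higher was 4 to 6 and that called lower was 3 under each; leaving out 1 replicate gave 4 to 6 and 3. Gclc, Gsr and Gpx4, of small change, depended on the scaling, and Gclc also on the pseudocount, the filter and cisplatin replicate 1. The Gsr call depended on single replicates of both groups and on the block as well, and that of Gpx4 on cisplatin replicate 2. After rescaling to a common sum Gclc was at -0.0198 and Gpx4 at -0.0008, and with quantile normalization Gclc was at -0.0839, Gsr at -0.0474 and Gpx4 at -0.123; the cause was not tested. Rescaling moved the median of all tested genes from -0.0028 to -0.10. With the replicate number as a block, 4 of the 10 genes were higher (Gsr lost its call, adjusted p = 0.0633) and 3 lower; the block changed no other call of the 10. A filter at 5 FPKM left 5934 genes called in place of 9303, since fewer were tested. Leaving out 1 replicate gave 8817 to 9398 called genes, and in the wider list 16 to 18 higher and 22 to 24 lower. Of the 13 peaks 7 passed at the authors' adjusted p of 0.01, 8 with a log2 difference of at least 1 in size, and 10 of those overlapping the RefSeq span. Peaks have no value per library, so their error is unknown.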
